A study of Mus musculus with 1019 samples.

Results

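Of 6 protease genes counted in sorted mouse T cells, Mmp9, Adam8 and Gzmb had more transcripts in both libraries from visceral adipose tissue (VAT) than in the spleen library, and Adam10, Adam17 and Adam19 did not pass the same rule of size. The 6 genes, which are 6 of the 23725 genes in the table, were named as a set of proteases after values of these same libraries had been seen, and partly for how they fall over spleen and VAT. Their VAT to spleen ratios are therefore a description and are given without a test. Per the labels the cells are regulatory T cells (Tregs), taken by flow cytometry as live (DAPI-) TCRb+ CD4+ CD25+ cells, although conventional T cells stand in the title of the series too. They came from epididymal VAT and from spleen of male B6 mice aged 20 months. No genetic change or treatment is given for either tissue. Enzymes (collagenase and dispase) freed the VAT cells and mechanical force the spleen cells, so tissue and dissociation cannot be told apart in any ratio below.

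Transcripts were captured at their 3' ends in inDrops droplets and counted by unique molecular identifier (UMI). VAT library 2 held 330 cells and 556099 UMIs, VAT library 3 held 314 cells and 548770 UMIs, and the spleen library held 375 cells and 573622 UMIs. Median depths were 1565, 1611 and 1423 UMIs per cell in that order. The labels name no animal, so each library was taken as 1 sample, and no p-value or standard deviation was computed. The 95% intervals below are exact and take in nothing but counting error. For the spleen cells the source field gives spleen, while the tissue field names spleen together with visceral adipose, and the replicate number in the sample type field is not that of the title. The 2 VAT libraries shared 2 cell barcodes, and VAT library 3 and the spleen library shared 1. Foxp3, the transcription factor that defines Tregs, had 263 UMIs in VAT library 2, 189 in VAT library 3 and 221 in spleen, and was detected in 128, 98 and 130 cells in that order. Cd4 had 374, 233 and 400 UMIs in the same order.

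The 6 genes encode 3 kinds of protease. MMP-9 (gelatinase B) is a secreted zinc metalloproteinase that cuts type IV collagen and denatured collagens and is well known from neutrophils and macrophages. ADAM8, ADAM10, ADAM17 and ADAM19 are membrane-anchored metalloproteinases. ADAM10 and ADAM17 are the main sheddases of lymphocytes and release the outer parts of proteins such as Notch receptors and tumour necrosis factor. Granzyme B is a serine protease that cuts after aspartate, is stored in cytotoxic granules and is also made by activated Tregs.

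Mmp9 (chr2:164940780-164955850, plus strand, on GRCm38) had the most UMIs of the 6 in VAT, where each UMI marks 1 captured transcript end. It had 138 UMIs in VAT library 2 and 173 in VAT library 3, against 6 in spleen. Both VAT libraries were high and the spleen library was low. In CPM (UMIs scaled to a common library total) its level was 248 (interval 208 to 293) in VAT library 2 and 315 (interval 270 to 366) in VAT library 3, against 10.5 (3.84 to 22.8) in spleen. The ratios to spleen were 23.7 (10.6 to 65.8) and 30.1 (13.6 to 83.3). The spleen side of these ratios rests on 6 UMIs in 3 cells. Without the 1 cell richest in Mmp9 in each library, which held 3 of the spleen UMIs, the mean ratio of both VAT libraries was 51.1 in place of 26.7.

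Adam8, a leukocyte metalloproteinase that can cut adhesion receptors, had 77 UMIs in VAT library 2 and 60 in VAT library 3, and none in the 375 spleen cells. The exact upper limit of its level in spleen was 6.43 CPM. Against a floor of 3 counts per library, 5.23 CPM in spleen, Adam8 was 26.5-fold higher in VAT library 2 and 20.9-fold higher in VAT library 3. These folds are not bounds: the exact lower limits of the ratios were 21.0 and 16.5. It lies at chr7:139978932-139992562 on the minus strand, and its last 46 bases overlap Gm16201 on the plus strand, a gene with no row in the table.

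Gzmb (chr14:56258838-56262260, minus strand) had 63 UMIs in VAT library 2 and 44 in VAT library 3, against 1 in spleen. Its level was 113 (87.1 to 145) and 80.2 (58.3 to 108) CPM in VAT library 2 and VAT library 3, and 1.74 (0.0441 to 9.71) in spleen. The ratios were 65.0 (11.2 to 2607) and 46.0 (7.84 to 1857). With 1 spleen UMI the upper limits carry little information. Without the 1 cell richest in Gzmb in each library the spleen count was 0, and the mean ratio against the floor of 3 counts was 13.3 in place of 54.7. Granzyme genes resemble one another, and how reads shared between them were counted was not given in the sources used here.

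Adam10, the sheddase that cuts Notch receptors and CD44, had 27 UMIs in VAT library 2, 31 in VAT library 3 and 33 in spleen. The ratios to spleen were 0.84 (0.49 to 1.45) and 0.98 (0.58 to 1.65). Adam17, which releases tumour necrosis factor, had 38 and 31 UMIs in VAT library 2 and VAT library 3, and 30 in spleen, ratios of 1.31 (0.79 to 2.18) and 1.08 (0.63 to 1.85). Adam19, also called meltrin beta, had 25 and 37 UMIs in VAT library 2 and VAT library 3, and 23 in spleen, ratios of 1.12 (0.61 to 2.07) and 1.68 (0.97 to 2.96). For Adam10 and Adam17 the counting intervals of both ratios reach at most 2.18, and for Adam19 the interval in VAT library 3 reaches 2.96. These limits concern counting only and do not show equal levels.

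Adam17 and Adam19 have neighbours on the other strand at their 3' ends, where inDrops tags fall, and whether counting used strand was not given in the sources used here. Adam17 (chr12:21323509-21373632, minus strand) overlaps the last 311 bases of Iah1, which had 12 UMIs in VAT library 2, 15 in VAT library 3 and 14 in spleen. Adam19 (chr11:46055992-46147343, plus strand) is overlapped by the antisense genes Gm16033 and Gm16034, which have no row in the table. Adam10 lies at chr9:70678997-70780229 on the plus strand with no annotated overlap.

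A gene was counted as higher or lower when its level differed at least 2-fold from spleen in both VAT libraries, among genes with 50 or more UMIs over the 3 libraries. All 6 proteases had that many UMIs. By this rule 3 of the 6 were higher and 0 were lower, beside 10.4% higher and 4.47% lower among the 4635 genes tested. Because the set was chosen on this contrast, nothing is read from the difference between these shares. The median log2 ratio over the 7429 genes with 20 or more UMIs was 0.04 in VAT library 2 and -0.06 in VAT library 3.

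**Figure D1:**
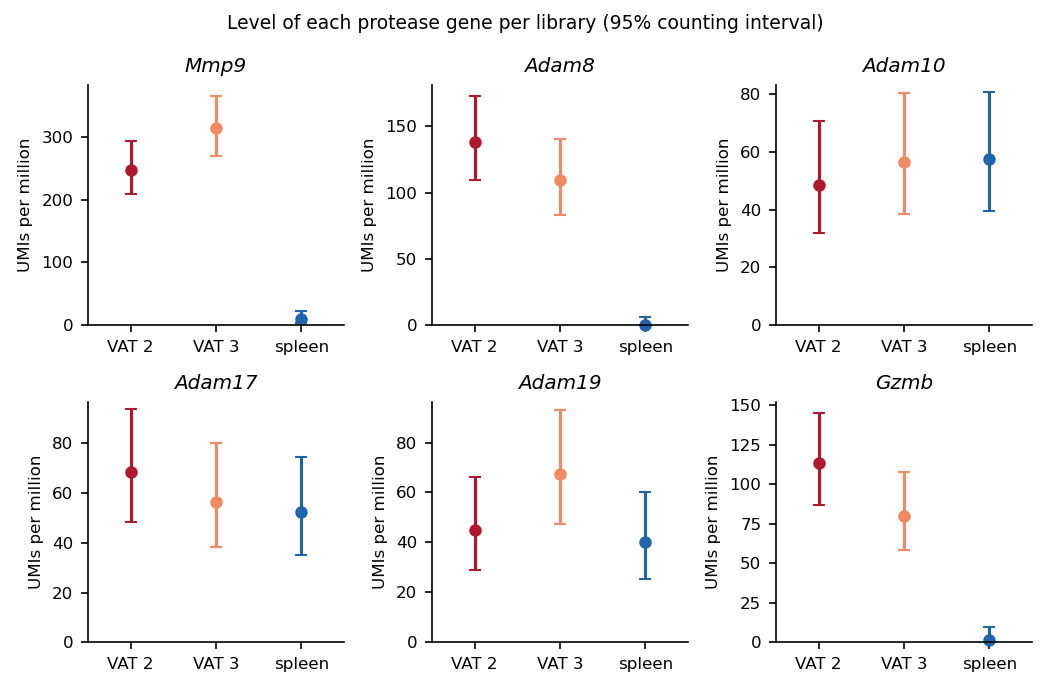
Level of each gene, in CPM, in VAT library 2, VAT library 3 and the spleen library, from left to right in each panel; the y axis differs between panels and starts at 0. Points are library sums and bars are exact 95% Poisson intervals. Mmp9, Adam8 and Gzmb stand at 80.2 CPM or more in VAT and at 10.5 or less in spleen, whereas the intervals of Adam10, Adam17 and Adam19 overlap across all 3 libraries.

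The RefSeq promoter windows of the ADAM genes and Gzmb differ widely in CpG content, and 4 are shown: Adam8 and Gzmb, which were higher in VAT, beside Adam10 and Adam17, which were not. Each is the 250 bases before the RefSeq start on GRCm38.p6, 5' to 3' on the gene's strand, with CG dinucleotides in capitals.
Adam8, chr7:139992563-139992812, minus strand: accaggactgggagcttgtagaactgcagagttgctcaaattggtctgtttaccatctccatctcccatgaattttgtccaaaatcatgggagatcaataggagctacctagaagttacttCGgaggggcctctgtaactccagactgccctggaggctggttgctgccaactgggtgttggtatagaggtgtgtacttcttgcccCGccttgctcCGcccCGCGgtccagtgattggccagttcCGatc
Gzmb, chr14:56262335-56262584, minus strand: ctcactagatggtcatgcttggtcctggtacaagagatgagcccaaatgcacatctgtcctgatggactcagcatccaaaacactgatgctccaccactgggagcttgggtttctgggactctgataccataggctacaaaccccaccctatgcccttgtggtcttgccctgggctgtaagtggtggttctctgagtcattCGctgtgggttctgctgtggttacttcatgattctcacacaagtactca
Adam10, chr9:70678732-70678981, plus strand: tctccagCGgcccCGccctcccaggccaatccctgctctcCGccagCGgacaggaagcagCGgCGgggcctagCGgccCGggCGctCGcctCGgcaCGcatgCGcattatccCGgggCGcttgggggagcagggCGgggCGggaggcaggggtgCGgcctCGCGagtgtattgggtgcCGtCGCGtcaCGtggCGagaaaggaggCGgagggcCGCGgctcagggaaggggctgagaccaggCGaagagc
Adam17, chr12:21373633-21373882, minus strand: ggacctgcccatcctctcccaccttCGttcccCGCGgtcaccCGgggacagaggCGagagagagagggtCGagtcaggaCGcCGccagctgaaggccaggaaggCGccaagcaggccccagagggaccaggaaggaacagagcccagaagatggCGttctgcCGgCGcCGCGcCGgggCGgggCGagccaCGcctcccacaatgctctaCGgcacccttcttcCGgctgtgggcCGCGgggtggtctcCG

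The ratio of observed to expected CpG was 0.344 in Adam8 and 0.0622 in Gzmb, against 0.866 in Adam10 and 0.743 in Adam17. The Gzmb window holds 1 CG dinucleotide and the Adam8 window 6, against 29 in Adam10 and 23 in Adam17. Adam19, whose window is not shown, had a ratio of 0.328, slightly below that of Adam8, and was not called higher in VAT. It has 3 windows, and the one nearest its annotated start was used. Whether CpG content goes with the VAT to spleen ratio was not tested. The median over all 32851 windows was 0.373. Searched on both strands, the AP-1 motif TGANTCA matched once in Gzmb, as TGAGTCA beginning 58 bases before the start, and once in Adam19, as TGAGTCA beginning 131 bases before it. It matched in 6.75% of all windows. The CRE motif TGACGTCA was in none of the 5 windows and in 1.55% of all windows. These are letters in a window, and no binding was measured.

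Mmp9 and Adam8 were found in more VAT cells than the other proteases, though each in a minority of cells. Before any correction for depth, 78 of 330 cells in VAT library 2 and 85 of 314 in VAT library 3 had a UMI of Mmp9, against 3 of 375 in spleen, which is 23.6%, 27.1% and 0.800%. Adam8 was found in 49 and 38 cells of VAT library 2 and VAT library 3, 14.8% and 12.1%, and in 0 of 375 spleen cells, with an exact upper limit of 0.979% for cells with a UMI, which does not limit the share of cells that express it. Gzmb was found in 25 and 13 VAT cells, 7.58% and 4.14%, against 1 spleen cell, 0.267%. Adam10, Adam17 and Adam19 were found in 6.05% to 8.92% of the cells of either VAT library, and in 4.27% to 6.67% of spleen cells.

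To compare shares at equal depth, every cell was thinned to 800 UMIs. No cell had fewer. Mmp9 was then found in 14.8% (11.2 to 19.2) of VAT library 2 cells and 19.4% (15.2 to 24.2) of VAT library 3 cells, against 0.533% (0.0647 to 1.91) of spleen cells. Adam8 was found in 9.09% (6.22 to 12.7) and 7.01% (4.44 to 10.4) in VAT library 2 and VAT library 3, and in none in spleen. Gzmb was found in 4.55% (2.57 to 7.39) and 2.87% (1.32 to 5.37) in VAT library 2 and VAT library 3, and in none in spleen. For Adam10 the shares were 4.24%, 4.46% and 4% in VAT library 2, VAT library 3 and spleen. For Adam17 they were 4.55%, 1.91% and 3.2%, and for Adam19 3.03%, 3.18% and 2.67%.

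A single draw of 800 UMIs is itself noisy for rare transcripts, so the mean over all possible draws was also computed by formula, a step added after the data were seen. It gave 14.3% and 17.0% for Mmp9 in VAT library 2 and VAT library 3, against 0.656% in spleen. For Adam17 it gave 4.73%, 3.46% and 3.53% in VAT library 2, VAT library 3 and spleen. The order of the 6 genes by this mean was Mmp9 first and Adam8 second in both VAT libraries. The other 4 lay between 3.03% and 5.18%, and their intervals after 1 draw overlapped. UMIs of the erythroid marker list, genes that T cells are not known to use, were counted without thinning as a measure of free RNA from red blood cells. They were present in 0.303% and 0.318% of VAT library 2 and VAT library 3 cells, against 21.9% of spleen cells. This list cannot measure free RNA from other cells, in VAT or in spleen. The spleen shares of Mmp9 and Gzmb, 0.800% and 0.267%, rest on 6 and 1 UMIs and are not read as expression.

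**Figure D2:**
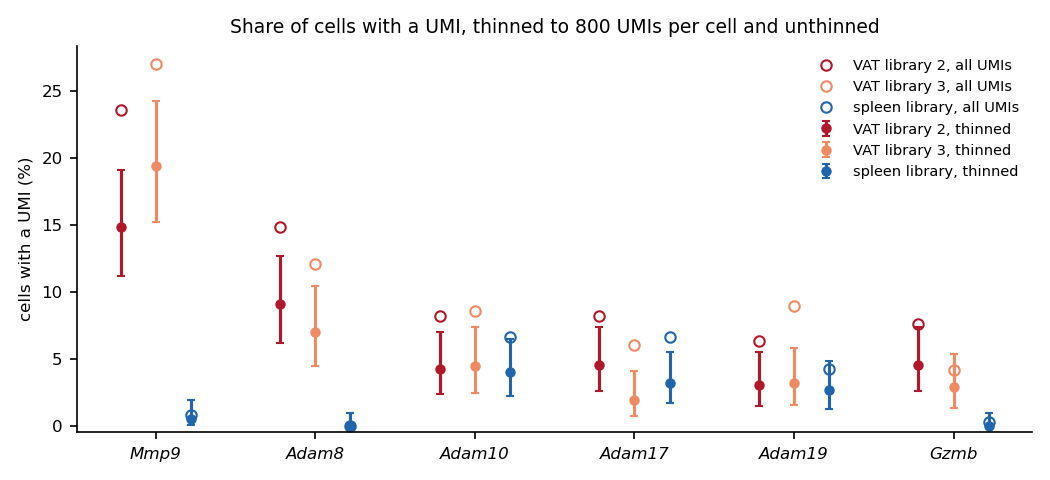
Share of cells with at least 1 UMI of each gene, in percent, in VAT library 2, VAT library 3 and the spleen library. Filled points are shares after thinning each cell to 800 UMIs, with exact 95% binomial intervals, and open points are unthinned shares. Mmp9 and Adam8 have the highest shares in VAT, and in spleen both lie below 1%.

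Gzmb transcripts were concentrated in few VAT cells, whereas those of Mmp9 and Adam8 lay nearer to the median of other genes of like abundance. If its 63 UMIs in VAT library 2 had fallen on cells in proportion to cell depth, 57.0 cells would have had a UMI, and 25 did, a ratio of 0.439. In VAT library 3 the 44 UMIs would have reached 40.8 cells and were in 13, a ratio of 0.319. Among genes with 0.5 to 2 times as many UMIs in the same library, 23 of 2191 in VAT library 2 and 7 of 2767 in VAT library 3 had a lower ratio, which is 1.05% and 0.253%. The gene's place among them is a description of these libraries.

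The cells that carried Gzmb differed widely among themselves. In VAT library 2 there were 10 cells with 1 UMI, 7 with 2, 4 with 3, and 1 each with 4, 5, 6 and 12. In VAT library 3 there were 3 cells with 1 UMI, 5 with 2, 2 with 3, and 1 each with 4, 6 and 15. The richest cell held 19.0% of all Gzmb UMIs in VAT library 2 and 34.1% in VAT library 3. Cells with 2 or more UMIs, 15 in VAT library 2 and 10 in VAT library 3, held 84.1% and 93.2% of the transcripts. Cells with any Gzmb UMI were not deeper than the rest, with medians of 1511 UMIs in both VAT libraries, against 1568 and 1614 in cells without one. The depth of the cells with 2 or more was not computed. Without the richest cell the ratio of observed to expected cells was 0.511 in VAT library 2 and 0.435 in VAT library 3.

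Mmp9 was in 78 VAT library 2 cells where 111 would follow from depth, a ratio of 0.702, and in 85 VAT library 3 cells where 130 would, a ratio of 0.653. The medians of genes with like UMIs were 0.792 and 0.772, and 24.8% and 18.6% of those genes had lower ratios. No cell held more than 6 Mmp9 UMIs in VAT library 2 or 8 in VAT library 3. The 36 and 37 cells with 2 or more UMIs held 69.6% and 72.3% of its transcripts. Cells with a Mmp9 UMI were deeper than the rest, with medians of 1740 against 1519.5 UMIs in VAT library 2 and 1708 against 1562 in VAT library 3. Adam8 had ratios of 0.720 and 0.702 in VAT library 2 and VAT library 3, where 31.2% and 33.4% of genes with like UMIs had lower ones, and at most 5 UMIs in a cell.

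For Adam10, Adam17 and Adam19 these ratios rest on few UMIs, and whether they differ between the genes was not tested. Adam10 was close to 1 UMI per positive cell, with ratios of 1.04 in VAT library 2 and 0.918 in VAT library 3, and 99.6% and 84.5% of genes with like UMIs had lower ones. In VAT library 2 each of its 27 UMIs was in a different cell. In spleen the Adam10 ratio was 0.794, and 48.9% of genes with like UMIs had lower ones. Adam17 had ratios of 0.755 and 0.646 in VAT library 2 and VAT library 3, and 0.869 in spleen. Adam19 had 0.874 and 0.806 in VAT library 2 and VAT library 3, and 0.718 in spleen, with single VAT cells of 4 and 5 UMIs. Of genes with like UMIs in VAT library 2 and VAT library 3, 38.0% and 21.1% had lower ratios than Adam17. For Adam19 these shares were 66.2% and 58.1%.

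**Figure D3:**
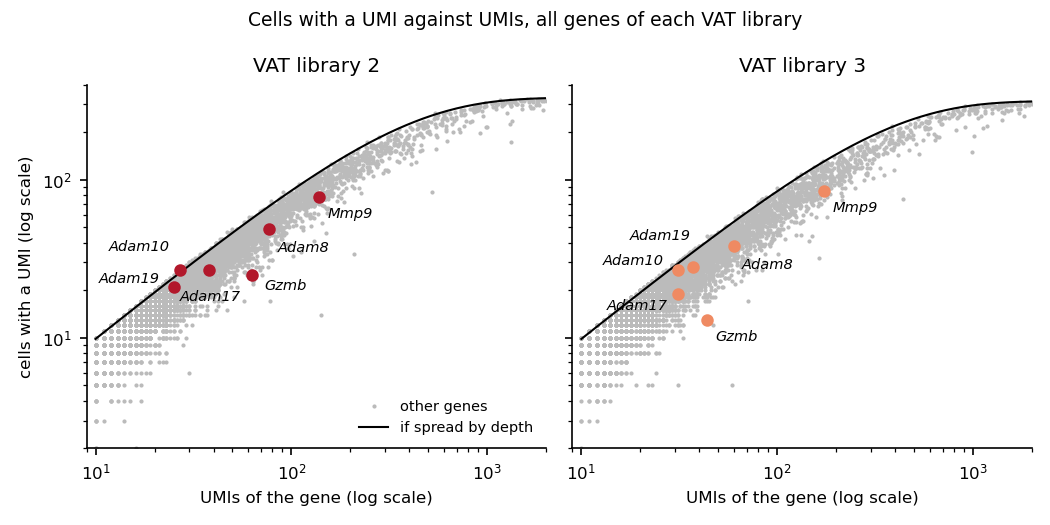
Number of cells with a UMI against the gene's UMIs, both on log scales, for every gene with 10 or more UMIs in VAT library 2 and in VAT library 3. Coloured points are the 6 proteases, grey points other genes, and the line is the number of cells if UMIs fell in proportion to cell depth. Gzmb lies well under the line with 25 and 13 cells, and Adam10 lies on or next to it.

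**Figure D4:**
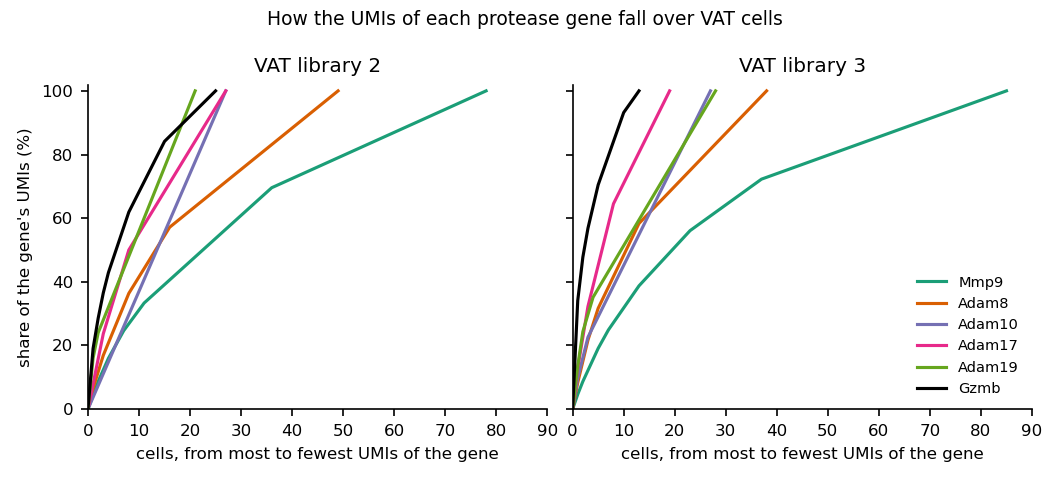
Share of each gene's UMIs, in percent, held by its cells taken from the richest to the poorest, in VAT library 2 and VAT library 3. The Gzmb curve is the steepest at its start, the richest cell holding 19.0% and 34.1%, and the Mmp9 curve reaches 100% only after 78 and 85 cells.

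After thinning, a UMI of at least 1 of the 6 genes was found in 33.6% of VAT library 2 cells and 32.2% of VAT library 3 cells, against 9.6% of spleen cells. UMIs of 2 or more of them were found in 6.06% and 6.69% of VAT library 2 and VAT library 3 cells, against 0.8% of spleen cells. Without thinning these shares were 50.6% in either VAT library against 17.3% in spleen for at least 1 gene, and 15.2% and 14.3% against 1.33% for 2 or more.

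Of the 15 pairs of the 6 genes, only Adam8 with Adam17 gave the same direction in both VAT libraries and at both depths, on very few shared cells. Without thinning, 2 of the 15 pairs (Mmp9 with Adam8 and Mmp9 with Adam10) were seen together more often than the product of their shares gives in both VAT libraries, 2 less often in both, and 11 more often in 1 library alone. That product takes no account of cell depth. Mmp9 and Adam8 were together in 12 cells of VAT library 2 and 16 of VAT library 3, where it gives 11.6 and 10.3. After thinning, Adam8 was in 4.08% of VAT library 2 cells with Mmp9, against 9.96% of cells without, and in 16.4% against 4.74% in VAT library 3. Adam10 was in 6.12% of VAT library 2 cells with Mmp9, against 3.91% without, and in 3.28% against 4.74% in VAT library 3. Gzmb and Mmp9 were together in 4 and 2 cells without thinning, under the products of 5.91 and 3.52. After thinning, Gzmb was in 6.12% of VAT library 2 cells with Mmp9, against 4.27% without, and in 3.28% against 2.77% in VAT library 3. Mmp9 and Adam17 were together in 12 cells of VAT library 2, where the product gives 6.38, but in 4 of VAT library 3, where it gives 5.14. Adam8 and Adam17 were together in 4 cells of VAT library 2 and 1 of VAT library 3 without thinning, where the product gives 4.01 and 2.30. After thinning, Adam17 was in 3.33% of VAT library 2 cells with Adam8, against 4.67% without, and in 0% against 2.05% in VAT library 3. All these counts are small, and neither co-occurrence nor avoidance is read from them.

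Cells were then divided, after thinning, by whether they held a UMI of a gene known from tissue Tregs. In cells with a UMI of Il1rl1, the IL-33 receptor of VAT Tregs, the thinned share of Mmp9 was 18.6% in VAT library 2 and 21.9% in VAT library 3, against 11.0% and 16.9% in cells without. Adam8 stood at 12.0% and 8.13% with Il1rl1, against 6.13% and 5.84% without. The intervals overlap in both libraries and for both genes. In cells with a UMI of Klrg1, a receptor of terminally differentiated T cells and tissue Tregs, Gzmb had 84.8 CPM in VAT library 2 and 58.0 in VAT library 3, against 196 and 161 in cells without. The single richest cells weigh heavily in these Gzmb levels, and its thinned shares were 3.67% and 2.85% with Klrg1, against 7.06% and 2.94% without, with overlapping intervals. Cells were divided by Il10 and Areg too, and only part of the pairings is given here. Some others changed direction between the libraries. With Il1rl1, Gzmb had 90.6 CPM in VAT library 2 and 87.0 in VAT library 3, against 136 and 72.7 without. With Klrg1, the thinned share of Adam8 was 10.2% and 6.50%, against 5.88% and 8.82% without. Klrg1 and Il1rl1 were themselves far higher in VAT than in spleen. There 10 cells had a thinned Klrg1 UMI and 7 an Il1rl1 UMI, too few for the same division.

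All 3 genes that were higher in VAT were counted both in cells with and in cells without a UMI of Foxp3 itself. After thinning, Mmp9 was present in 18.8% and 18.2% of VAT library 2 and VAT library 3 cells with Foxp3, against 13.6% and 19.7% of cells without. Adam8 was present in 7.5% and 3.64% with Foxp3, against 9.6% and 7.72% without. Gzmb was present in 3.75% and 1.82% with Foxp3, against 4.8% and 3.09% without. The intervals overlap for each gene. A cell without a Foxp3 UMI at this depth is not shown to lack Foxp3.

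Clusters made from both VAT libraries without the 6 genes did not hold any of them alone. Of 9 clusters, Mmp9 had UMIs in all 9 in VAT library 3 and in 8 in VAT library 2. In VAT library 2 it had no UMI in the 16 cells of cluster 8, led by Irf8 and Tnfrsf9, with an exact upper limit of 123 CPM. In VAT library 3 the same cluster had the highest Mmp9 level of the 9, 499 CPM (228 to 947), from 9 UMIs in 3 of 10 cells. Nothing is read from so few cells. The cluster richest in Gzmb differed between the libraries. Cluster 6 held 30 of 63 Gzmb UMIs in VAT library 2, in 6 cells, and 0 of 44 in VAT library 3. Cluster 2, led by Penk and Cxcl10, held 4 of 63 in VAT library 2 and 28 of 44 in VAT library 3, in 6 cells. Clusters 4, 5 and 7 held between 2 and 8 Gzmb UMIs in each library.

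The genes whose VAT pattern over cells was most like that of each protease were only weakly so. Pearson correlations were taken over the 330 and 314 cells of VAT library 2 and VAT library 3, on log counts scaled to 10000 per cell, and depth is shared by all points. For Mmp9 the first was AA467197, with r of 0.21 in both libraries. For Gzmb it was Dusp2, an activation-induced phosphatase, with 0.18 and 0.20. For Adam8 it was D16Ertd472e, with 0.16 and 0.15. For Adam10, Adam17 and Adam19 the first were Gstp1, Il10ra and Atox1, with values between 0.12 and 0.23. In counts this sparse such values are no finding. Mmp9 was followed by Cdk2ap2, Gimap4, Tmem30a and Rmi2, and Gzmb by Dctn2, Kdm6b, Sdcbp2 and Zfp935, all between 0.10 and 0.16.

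Other matrix metalloproteinases were nearly absent. Of 18 genes none had 20 UMIs over the 3 libraries, and 15 had none in VAT library 2, 16 in VAT library 3 and 17 in spleen. Mmp25, a membrane-anchored metalloproteinase of leukocytes, had 16 UMIs in VAT library 2 and 3 in VAT library 3, against 0 in spleen, and was named after its values were seen. Of 16 other ADAM and ADAMTS genes 3 had 20 UMIs and none had 50. Adam15 had 11 and 9 UMIs in VAT library 2 and VAT library 3, against 1 in spleen. Adam28 had 13 and 10 against 19, and Adamts10 6 and 9 against 16.

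Among inhibitors of metalloproteinases, Timp2 had 2 UMIs in VAT library 2 and 6 in VAT library 3, against 51 in spleen, and was the 1 of 6 genes with 50 UMIs, called lower. Its ratios were 0.0405 (0.00477 to 0.154) and 0.123 (0.0431 to 0.287). Timp1, Timp3, Timp4 and A2m had no UMI in any library. Furin, the convertase that removes the inhibitory prodomain of several ADAM proteases, had 112 and 64 UMIs in VAT library 2 and VAT library 3, against 17 in spleen, ratios of 6.80 (4.06 to 12.1) and 3.94 (2.28 to 7.17). It was the 1 of 4 convertase genes with 50 UMIs.

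The partners that carry ADAM10 and ADAM17 to the cell surface were not called in either direction. Of 9 such genes 3 had 50 UMIs. Frmd8, which binds the iRhom partners of ADAM17, had 47 and 45 UMIs in VAT library 2 and VAT library 3, against 64 in spleen. Tspan15, a tetraspanin partner of ADAM10, had 37 and 32 against 49. Tspan14, another such tetraspanin, had 49 in VAT library 2 and 19 in VAT library 3, against 27 in spleen, so the VAT libraries lie on both sides of spleen. Tspan17 had 16 and 12 UMIs in VAT library 2 and VAT library 3, against 0 in spleen.

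Substrates of these sheddases differed in both directions. Of 15 genes 7 had 50 UMIs, and 3 were higher, 2 lower and 2 neither. Areg, which encodes the growth factor amphiregulin, had 994 and 1179 UMIs in VAT library 2 and VAT library 3, against 20 in spleen. Cd44, a hyaluronan receptor, had 508 and 437 against 68, and Tnf, named after its values were seen, had 59 and 41 against 7. Il6ra, also named after its values were seen, had 13 and 9 UMIs in VAT library 2 and VAT library 3, against 52 in spleen. Tnfrsf1b, the type 2 receptor for tumour necrosis factor, had 219 and 138 against 119 and was not called. Over the 11 genes of this list with 20 UMIs the median log2 ratio was 0.61 in VAT library 2 and 0.28 in VAT library 3.

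Other cytotoxic genes were scarce. Prf1, which encodes perforin, had 3 and 2 UMIs in VAT library 2 and VAT library 3, against 5 in spleen, and Gzma had 1, 0 and 0. Gzmk had no UMI in any library. These 3 were picked out once their values were known. Of 13 other granzyme and granule genes with a row, 3 had 50 UMIs. Srgn, which encodes the granule proteoglycan serglycin, was higher, with 1648 and 1565 UMIs in VAT library 2 and VAT library 3, against 731 in spleen, ratios of 2.33 (2.13 to 2.54) and 2.24 (2.05 to 2.45). Lamp1 and Ctsc, the gene of the protease that activates granzymes, were not called. Of 4 genes in a list of serpins, Serpinb6a had 111 and 117 UMIs in VAT library 2 and VAT library 3, against 14 in spleen. Its ratios were 8.18 (4.67 to 15.4) and 8.74 (5.0 to 16.5). Whether the serpin it encodes inhibits granzyme B was not examined. Serpinb6b was not called higher. Serpinb9 had 12 and 6 UMIs in VAT library 2 and VAT library 3, against 16 in spleen, too few to be called.

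Markers of other cells that make these proteases were counted beside them. Of 11 neutrophil markers, S100a8, S100a9, Lcn2, Ngp, Camp, Ltf, Retnlg, Elane and Mpo had no UMI in either VAT library. The list's 192 and 222 UMIs in VAT library 2 and VAT library 3, against 295 in spleen, came almost wholly from Cxcr2 (178, 202 and 273) and Csf3r (14, 20 and 20), in the same order. After thinning, list UMIs were present in 25.6% and 25.9% of VAT library 2 and VAT library 3 cells with Mmp9, against 25.0% and 21.4% of cells without. The 16 monocyte, macrophage and dendritic cell markers summed to 37 and 31 UMIs in VAT library 2 and VAT library 3, against 39 in spleen. Most came from Xcr1 (20, 18 and 27), Siglech (11, 8 and 7) and Itgam (4, 2 and 5), in the same order. Lyz2 and Csf1r had 1 UMI each in either VAT library and 0 in spleen, and Cd68 had 1, in VAT library 3. Adgre1, Fcgr3, Cd14, Itgax and the C1q genes were at 0 in all 3 libraries.

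For Gzmb the matching list was that of CD8 T cells and NK cells. Its 11 genes summed to 38 and 32 UMIs in VAT library 2 and VAT library 3, against 37 in spleen, mostly from Cd8b1 (32, 30 and 28). Cd8a, Klrb1c, Ncr1, Klrd1 and Eomes were at 0 in all 3 libraries. UMIs of the list were present in 2 of 25 cells with Gzmb in VAT library 2 and 1 of 13 in VAT library 3, against 29 of 305 and 27 of 301 cells without, which is 8% and 7.69% against 9.51% and 8.97%. After thinning the shares were 8% and 0% with Gzmb, against 4.92% and 5.32% without. In VAT library 3 the same list was more often present in cells with Mmp9, 10.6% after thinning against 3.06% of cells without, and in VAT library 2 it was not, 5.13% against 5.16%. The part of the list in the Mmp9 counts was not tested.

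All 14 immediate early genes with 50 UMIs were higher in VAT, and they move with the same contrast as Mmp9, Adam8 and Gzmb. Summed over 16 genes, they reached 26974 and 24597 CPM in VAT library 2 and VAT library 3, against 1545 in spleen. Their part in the protease levels was not tested. All 5 genes of a tissue Treg list, Klrg1, Il1rl1, Gata3 and Ccr2 among them, had 50 UMIs and were higher in VAT as well. Of all 4635 genes tested, 10.4% were higher. Markers of red blood cells had 1 UMI in either VAT library, against 116 in spleen, and adipocyte, mast cell and B cell markers had at most 5 UMIs per list in either VAT library.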

How the data were processed

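Each deposited sample is 1 cell. The deposited values are raw UMI counts per gene and cell, not normalized by the authors; per the submitters' processing notes TopHat2, SAMtools and build mm10 were used. Gene annotation, cell filter and doublet removal are not given in the sources used here, and no doublet caller was run. Columns were assigned by title and groups by source. The 6 genes and all gene lists were chosen with earlier results of these data known. The named genes were the 6 proteases, up to 4 genes per list with the most UMIs among those with 20 or more, and the 5 closest correlates of each protease; genes named for a count of 0 and all others were named after their values were seen. Some genes of the lists are counted but not reported by name here.

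UMIs were summed per library and divided by its total. Ratios carry exact conditional binomial intervals, shares Clopper-Pearson intervals and levels Poisson intervals, all at 95%. Where spleen had no UMI, a floor of 3 counts was used. log2 ratios add 0.5 to each count. UMIs of 1 gene came in clumps within cells, so these intervals are too narrow. Clusters used 2000 variable genes, 20 principal components and Leiden resolution 1 (scanpy 1.11.5, Python 3.11.15, scipy 1.17.1). Gene positions are from GENCODE M21 on GRCm38, and promoter windows, found for 5 of the 6 genes, from RefSeq on GRCm38.p6. The call rule and intervals were tried on simulated counts without clumps. The changes put in were large and lay in genes with more UMIs than most of the 6 have. That trial therefore does not show how the rule and intervals perform on these counts. No paired analysis was possible because spleen is 1 library: its title shares number 2 with a VAT library, which gives a single pair.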

Additional observations from a re-analysis of the deposited data

How the results depend on the processing

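Mmp9, Adam8 and Gzmb stayed above spleen, and no ratio of these 3 turned round, under every alternative run. Of 65 recomputed ratios (the geometric mean over both VAT libraries, or the ratio of 1 where the other was left out) 60 stayed within the counting interval. That interval is too wide to show stability for some genes. It ran from 9.76 to 2214 for Gzmb, and for Adam8 it began at 19.0 and had no upper limit. With cells that had a Foxp3 UMI only, Adam8 was 7.16 against the floor, Adam10 1.76, Adam17 0.594 and Gzmb 16.6 in place of 54.7. The floor of 3 counts is 14.8 CPM in these fewer spleen cells, against 5.23 in all, which lowers the Adam8 fold. Adam8 itself had 128 and 87.7 CPM in VAT library 2 and VAT library 3 cells with Foxp3, against 138 and 109 in all cells. The number of genes called higher was 1, since only Mmp9 (132 UMIs) kept 50 UMIs in these 356 cells. Without cells with 2 or more UMIs of other cell types' markers, Adam8 was 16.1, again against a raised floor, since 239 of 375 spleen cells were left. Adam19 was 2.57 and Mmp9 51.7 in that setting, and 4 genes were called higher. A minimum of 200 UMIs left 1 gene called. Leaving out VAT library 2 or 3 gave 2 and 3 called, the 2 because Gzmb then had under 50 UMIs, and ratios of 30.1 and 23.7 for Mmp9, 20.9 and 26.5 for Adam8 and 46.0 and 65.0 for Gzmb. With cells weighted equally Adam8 had no value, its spleen count being 0.

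Shares depend on depth. Without thinning, in VAT library 2 and VAT library 3, they were 23.6% and 27.1% for Mmp9, 14.8% and 12.1% for Adam8, 8.18% and 8.60% for Adam10 (6.67% in spleen), 8.18% and 6.05% for Adam17 (6.67% in spleen), 6.36% and 8.92% for Adam19, and 7.58% for Gzmb in VAT library 2. Thinned to 400 UMIs, they were 9.09% and 7.96% for Mmp9, 3.03% for Adam8 and 1.82% for Adam17 in VAT library 2, 0.606% and 1.27% for Adam10 (2.13% in spleen) and 0.955% for Gzmb in VAT library 3. Another draw at 800 UMIs gave 13.4% for Mmp9 and 6.05% for Adam19 in VAT library 3. Among cells with a Foxp3 UMI, Adam17 was at 0% in VAT library 3. The 36 recomputed concentration ratios stayed within limits rescaled from the counting interval of the share of cells with a UMI. Those limits are wide. Without its richest cell in VAT library 3, Gzmb went from 0.319 to 0.435 and stayed within them. Depth limits every statement on Adam10, Adam17 and Adam19, which had 23 to 38 UMIs per library.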
